A study of Mus musculus with 17 samples.

Results

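Genes of DNA replication and cell division were followed in mouse keratinocytes after knockdown of Musashi-2 (Msi2), a protein that binds messenger RNAs, mostly in their 3' UTRs. The 38 genes, called members here, were taken by name from the 20572 genes of the count tables, not by a threshold on a measured value, though the list was drawn up with earlier results of these data known. Of these, 13 act in DNA replication and nucleotide supply, 4 are cyclins of G1 and S phase, and 21 act in mitosis and cytokinesis. Libraries were made from cells infected with a lentivirus encoding a short hairpin RNA against Msi2 (Msi2 shRNA), and their controls from cells infected with a scrambled hairpin (scrambled). Each group had 3 RNA libraries and 3 ribosome footprint libraries. Both groups were 1 spontaneously immortalized culture of keratinocytes from newborn C57BL/6 skin, started on mitomycin-treated NIH-3T3 J2 feeder fibroblasts for 3 passages and then kept on bare dishes. Puromycin at 2 ug/ml was added 2 days after infection for 2 days, and the selected cultures were expanded. Cells for footprints were briefly exposed to cycloheximide, which halts ribosomes. A further 5 libraries of HITS-CLIP were made by crosslinking with UVC at 200 mJ/cm2 and recovering RNA with an antibody to Msi2. RNase was undiluted in library 1 and diluted 1 in 20 in libraries 2 and 3. It was diluted 1 in 50 in library 4 and 1 in 75 in library 5. Libraries 2 and 3 also differ by label, library 2 being marked low molecular weight (Low MW) and library 3 high (Hi MW). No label states that the replicates were separate infections. Each p-value therefore reflects how far the given libraries scatter, and that scatter may be technical.

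Replication genes and mitosis genes are used at different times. Origin licensing factors load the MCM helicase in G1, and ribonucleotide reductase and thymidylate synthase supply nucleotides in S phase. Transcripts of this group are classically driven by E2F factors once Rb is phosphorylated by cyclin D and cyclin E kinases. Mitotic cyclins, kinases, motors and kinetochore proteins peak in G2 and mitosis, and their promoters are known for CCAAT boxes and for the cell cycle genes homology region (CHR), the site of the DREAM and MuvB complexes with Rb-family proteins, B-Myb or FoxM1. In epidermis both groups mark the proliferating basal layer, and Ki-67 (Mki67) is the usual stain for it.

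Where a promoter sequence was found, most replication members held an E2F string and most mitosis members a CHR string. A string match is named by its motif below, and use of the sites was not tested. A few promoters are shown because genes with the same motif did not share a call after the knockdown. In RNA, mitosis members with a CHR included some called higher, 1 called lower and some not called. Replication members with an E2F match included some called higher and some not called, and 0 called lower. RefSeq promoters (GRCm38.p6, from 250 bases before to 50 bases after each start site) matched 29 of the 38 members; Mcm4, Gins2, Ccne2, Ccnd1, Ccnd2, Ccna2, Aurkb, Kif20a and Tpx2 were not matched. The first 5 windows of 30 bases are from mitosis members and hold a CHR (TTTGAA or TTTAAA) in capitals. The other 4 are from replication members and hold an E2F match (TTGGCGC, or else TTCGCGC, or else TTCCCGC, or else TTGCCGC, on either strand) in capitals. All read 5' to 3' on the gene's strand.
Mki67 (chr7:135716478-135716507, minus): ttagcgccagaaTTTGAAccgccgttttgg
Cenpf (chr1:189688223-189688252, minus): gctctgcttgttTTTAAAcagtcgtccaaa
Cdk1 (chr10:69352966-69352995, minus): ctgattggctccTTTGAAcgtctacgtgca
Ccnb2 (chr9:70421704-70421733, minus): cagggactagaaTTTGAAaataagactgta
Cdc20 (chr4:118437344-118437373, minus): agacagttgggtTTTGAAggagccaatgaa
Cdc6 (chr11:98908001-98908030, plus): ggccggtggagaGCGGGAAatcgcctgggg
Mcm6 (chr1:128359797-128359826, minus): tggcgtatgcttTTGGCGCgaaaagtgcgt
Mcm5 (chr8:75109345-75109374, plus): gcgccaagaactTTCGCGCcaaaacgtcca
Rrm1 (chr7:102441616-102441645, plus): caggagaactcgTTCCCGCcaggtccgctt

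A CHR match on either strand stood in the promoter of 3 of 11 matched replication members (27.3%) and 16 of 17 matched mitosis members (94.1%), against 30.6% of the 27025 genes in the promoter table. An E2F match stood in 8 of the 11 replication members (72.7%) and 3 of the 17 mitosis members (17.6%), against 10.9% of all genes. CCAAT on either strand was found in 72.7% of replication and 88.2% of mitosis members, against 41.1% of all genes. TTTAAA reads the same on both strands, and an E2F match can overlap a CCAAT box on the other strand, so the motif counts are not independent of each other. Of the 16 mitosis members with a CHR, 7 had more RNA in Msi2 shRNA libraries, 1 had less and 8 were not called, where 22% of all genes tested had more and 21.7% less. Only 1 matched mitosis member lacked a CHR, so members with and without it cannot be compared. Of the 3 replication members with a CHR 2 had more RNA and 1 was not called, and of the 8 without it 1 had more, 1 had less and 6 were not called. Of the 8 replication members with an E2F match 2 had more and 6 were not called, and of the 3 without it 1 had more, 1 had less and 1 was not called. Of the windows shown, Mki67, Cenpf and Cdc6 belong to genes whose RNA rose, and Ccnb2 to a gene whose RNA fell.

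**Figure D1:**
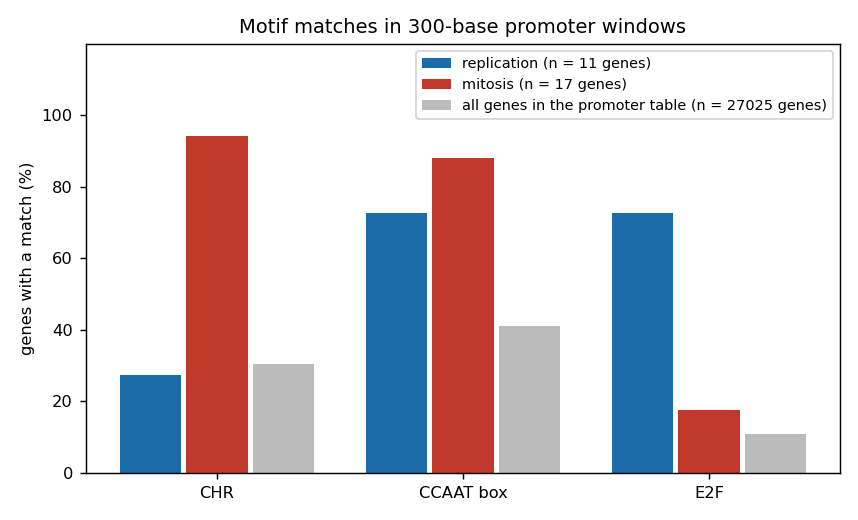
Share of genes with a motif match in the promoter (vertical axis, %), for replication members (blue, 11 genes), mitosis members (red, 17 genes) and all genes in the RefSeq table (grey). The CHR was found in 27.3% of replication members and 94.1% of mitosis members, and the E2F motif in 72.7% of replication members and 17.6% of mitosis members.

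RNA libraries held 9221566 to 26785876 counts in genes and footprint libraries 512256 to 2959625, so footprint values are less precise; the shallowest was Msi2 shRNA footprint library 2. Msi2 itself, the target of the hairpin, had 4.53, 0 and 5.12 CPM (counts scaled to library size with TMM factors) in Msi2 shRNA footprint libraries 1, 2 and 3, against 17.1, 16.8 and 18.3 CPM in scrambled ones, a log2 difference of -2.08 ± 0.41 (edgeR quasi-likelihood test, adjusted p = 0.000285). Its RNA had 6.55, 6.41 and 5.10 CPM in Msi2 shRNA libraries and 6.51, 6.64 and 8.82 CPM in scrambled libraries, groups that overlapped (adjusted p = 0.283 in the same test). RNA of the target therefore does not check the labels of the RNA libraries. Keratinocyte markers such as Krt5 and Krt14 summed to 13212 to 14577 CPM in Msi2 shRNA RNA libraries and 15655 to 18942 CPM in scrambled ones. Of these 11 markers, 3 were called higher and 4 lower in RNA. Differentiation markers summed to 468 to 558 CPM in Msi2 shRNA and 682 to 992 CPM in scrambled RNA libraries, and 5 of the 8 in the tables were called lower. Of 11 fibroblast markers, which the feeder cells could bring, 7, with Col1a2, Col3a1 and Dcn among them, had no read in any RNA library. The list summed to 18.7 to 21.9 CPM in Msi2 shRNA and 15.3 to 17.9 CPM in scrambled RNA libraries, with 1 marker called higher. In footprints 3 of the 11 had no read in any library and 0 were called. There the list summed to 56.2 to 66.5 CPM in Msi2 shRNA and 47.0 to 64.5 CPM in scrambled libraries. The endothelial and muscle list summed to 9.29 to 13.5 CPM in Msi2 shRNA and 4.87 to 6.16 CPM in scrambled RNA libraries, with 2 of 6 markers called higher. The immune list summed to 8.30 to 13.4 CPM in Msi2 shRNA and 16.02 to 18.6 CPM in scrambled ones, with 1 of 5 called lower, and the melanocyte list to 2.08 to 3.77 CPM in Msi2 shRNA and 1.71 to 2.31 CPM in scrambled ones, with 0 of 6 called. Reads with more than 1 alignment made up 19.8 to 24.5% of Msi2 shRNA RNA libraries and 13.4 to 17.4% of scrambled ones. The part of these differences in the results below was not tested.

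Among all 38 members, RNA was higher in Msi2 shRNA libraries for 13 and lower for 4, at an adjusted p under 0.05 over 11117 genes tested. RNA of many genes differed between the groups: 22% of all genes tested were called higher and 21.7% lower, 43.8% in all. Mitosis members made up 9 of the 13 higher genes. In footprints 10 members were higher and 0 lower, where 8.76% of 8969 genes were called higher and 7.38% lower, 16.1% in all. By unadjusted p under 0.05 there were 13 members in footprints, where 28.2% of all genes were under it, and DESeq2 called 7 members higher and 0 lower, where it called 9.52% of all genes in either direction. All 38 members passed the filter on low counts in both assays. They were also more abundant than most genes, with a median average level of 6.72 log2 CPM in RNA against 4.65 over all genes tested, and shares called were not compared at equal abundance. In bulk libraries such as these, a change in how many cells are in a phase of the cycle and a change of RNA per cell cannot be told apart.

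**Figure D2:**
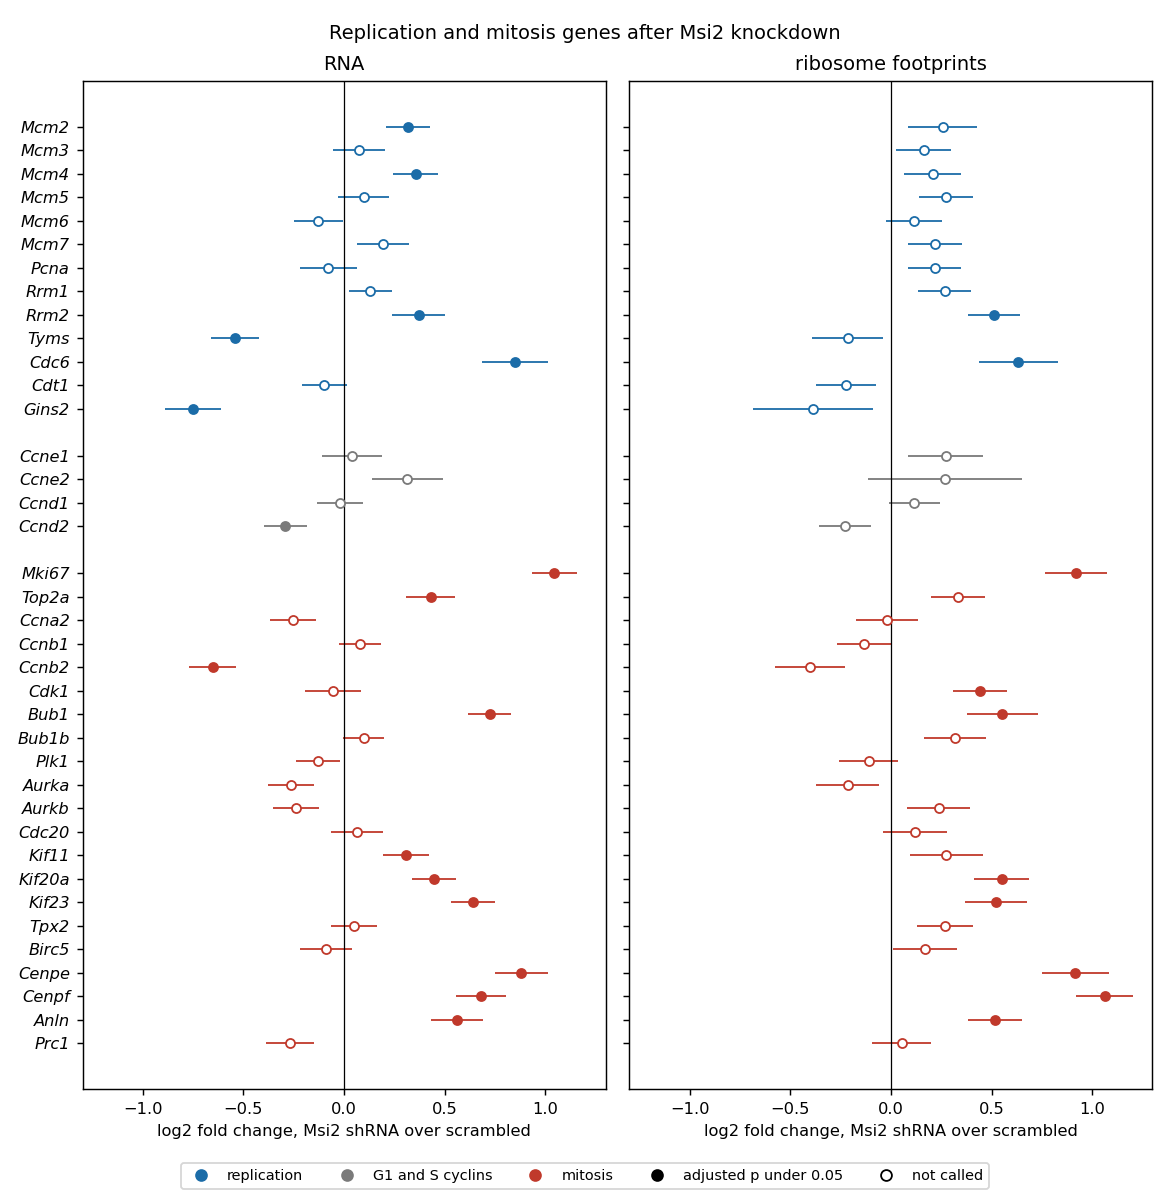
Log2 fold change of each member, Msi2 shRNA over scrambled, in RNA (left) and ribosome footprints (right), with bars of 1 standard error of the edgeR fit (n = 3 libraries a group) and filled points where the adjusted p was under 0.05. Mki67 (1.05 ± 0.11 in RNA) and Cenpf (1.06 ± 0.14 in footprints) lie farthest to the right, and no footprint point left of zero is filled.

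RNA of 4 of 13 replication members rose (30.8%, against 22% of all genes) and of 2 fell (15.4%, against 21.7%). The median log2 fold change was 0.10 (range -0.75 to 0.85) against 0.00 for all genes. Only 1 was called higher without Msi2 shRNA library 1 or 3, and 2 without scrambled library 1 or 3. The count stayed at 4 without library 2 of either group. With 1 library left out the median ran from -0.02 (scrambled library 3) to 0.17 (Msi2 shRNA library 2). In footprints 2 of the 13 members rose (15.4%, against 8.76%) and 0 fell (against 7.38%), with a median of 0.22 against -0.01 for all genes. Genes of origin licensing and helicase activation went apart. Cdc6, which loads the MCM helicase onto origins, had 25.3, 23.7 and 22.7 CPM of RNA in Msi2 shRNA libraries, against 11.6, 16.6 and 11.05 CPM in scrambled libraries. All Msi2 shRNA libraries were above all scrambled ones, a log2 fold change of 0.85 ± 0.16 (SE, n = 3 each; adjusted p = 0.000546). Its footprints were 47.3, 46.1 and 60.4 CPM in Msi2 shRNA and 34.2, 32.2 and 32.4 CPM in scrambled libraries, again without overlap (0.63 ± 0.20, adjusted p = 0.0224). That footprint call ended without Msi2 shRNA library 3 (adjusted p = 0.194), scrambled library 1 (0.0606) or scrambled library 2 (0.0678), and under DESeq2 (0.106). Gins2, a subunit of the GINS complex that activates the helicase, went the other way in RNA, with 16.7, 14.9 and 16.5 CPM in Msi2 shRNA and 28.4, 29.04 and 23.4 CPM in scrambled libraries (-0.75 ± 0.14, adjusted p = 0.000414). Gins2 footprints were few and scattered, 20.1, 12.03 and 15.3 CPM in Msi2 shRNA and 17.1, 19.8 and 40.9 CPM in scrambled libraries, and were not called (adjusted p = 0.429). Cdt1, which works with Cdc6 in loading MCM, was called in neither assay (RNA -0.10 ± 0.11, adjusted p = 0.493; footprints -0.22 ± 0.15, adjusted p = 0.345). Its footprints were called lower without the shallowest library of each group (adjusted p = 0.0331).

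The 6 MCM helicase subunits had RNA log2 fold changes from -0.13 to 0.36. Mcm4 RNA was 125, 111 and 117 CPM in Msi2 shRNA and 87.05, 103 and 85.4 CPM in scrambled libraries, with no overlap (0.36 ± 0.11, adjusted p = 0.0157). For Mcm2 the RNA values were 105, 97.2 and 106 CPM in Msi2 shRNA and 90.4, 82.6 and 73.7 CPM in scrambled libraries (0.32 ± 0.11, adjusted p = 0.0266). Both rises were small, and each call rested on single libraries. The Mcm4 call ended without Msi2 shRNA library 1 (adjusted p = 0.0933), Msi2 shRNA library 3 (0.0583) or scrambled library 1 (0.0890), and the Mcm2 call without Msi2 shRNA library 1 (0.0993), Msi2 shRNA library 3 (0.110) or scrambled library 3 (0.0590). Footprints of neither were called: Mcm4 had 177, 197 and 181 CPM in Msi2 shRNA and 171, 166 and 133 CPM in scrambled libraries (adjusted p = 0.354). Mcm2 had 112, 164 and 116 CPM in Msi2 shRNA and 133, 85.98 and 95.9 CPM in scrambled libraries (adjusted p = 0.346). Mcm3 RNA was 174, 151 and 183 CPM in Msi2 shRNA and 176, 174 and 131 CPM in scrambled libraries, with scrambled library 3 the lowest of the 6 (adjusted p = 0.666). Its footprints were 254, 277 and 285 CPM in Msi2 shRNA and 254, 268 and 193 CPM in scrambled libraries (adjusted p = 0.475). Mcm5, Mcm6 and Mcm7 had RNA log2 fold changes of 0.10, -0.13 and 0.19 (adjusted p = 0.564, 0.407 and 0.237). In footprints these were 0.27, 0.12 and 0.22 (adjusted p = 0.178, 0.630 and 0.296). Of the 6 subunits, which form 1 ring, 2 were called in RNA, where 43.8% of all genes were called. In footprints 0 were, where 16.1% of all genes were. The differences between subunits were not tested.

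Genes of nucleotide supply were divided. Rrm2, the S-phase subunit of ribonucleotide reductase, had 371, 329.8 and 369.8 CPM of RNA in Msi2 shRNA and 268, 326 and 232 CPM in scrambled libraries (0.37 ± 0.13, adjusted p = 0.0300). Its footprints were close together in the Msi2 shRNA libraries, 699, 702 and 706 CPM, against 469, 572 and 426 CPM in scrambled libraries (0.51 ± 0.13, adjusted p = 0.00505). The footprint call held under every alternative, whereas the RNA call ended without Msi2 shRNA library 1 (adjusted p = 0.120) or 3 (0.119) and without scrambled library 1 (0.130) or 3 (0.0785). Tyms, thymidylate synthase, was the reverse in RNA, with 70.6, 59.2 and 73.3 CPM in Msi2 shRNA and 99.9, 108 and 87.7 CPM in scrambled libraries (-0.54 ± 0.12, adjusted p = 0.00153). Its footprints, 65.5, 50.1 and 68.6 CPM in Msi2 shRNA and 84.3, 70.9 and 59.3 CPM in scrambled libraries, overlapped (adjusted p = 0.459). Rrm1, the large reductase subunit, and Pcna, the sliding clamp of DNA polymerases, were called in neither assay, at RNA log2 fold changes of 0.13 and -0.08 (adjusted p = 0.342 and 0.677). In footprints these were 0.27 and 0.22 (adjusted p = 0.180 and 0.294).

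The D cyclins, which start the G1 kinases CDK4 and CDK6, were the members with the most Msi2 peaks. Ccnd2 RNA was 60.9, 60.4 and 58.8 CPM in Msi2 shRNA and 77.6, 68.5 and 74.5 CPM in scrambled libraries, without overlap (-0.29 ± 0.11, adjusted p = 0.0345). That call was a narrow one, ending without Msi2 shRNA library 1 (adjusted p = 0.0857), 2 (0.0815) or 3 (0.116), without scrambled library 1 (0.0970), and with upper-quartile factors (0.0611). Ccnd2 footprints were 607, 734 and 645 CPM in Msi2 shRNA and 747, 855 and 709.6 CPM in scrambled libraries and were not called (-0.23 ± 0.13, adjusted p = 0.249). Ccnd1 had 253, 231 and 236 CPM of RNA in Msi2 shRNA and 269, 234 and 226 CPM in scrambled libraries, groups that overlapped (-0.02 ± 0.11, adjusted p = 0.907). In footprints it had 1242, 1299.7 and 1261 CPM in Msi2 shRNA and 1085, 1293 and 1123 CPM in scrambled libraries (0.12 ± 0.13, adjusted p = 0.590). The E cyclins, partners of CDK2 at the start of S phase, were not called. Ccne1 stood at 0.04 ± 0.15 in RNA and 0.27 ± 0.19 in footprints (adjusted p = 0.847 and 0.364). Ccne2, with as few as 2 footprint counts in a library, stood at 0.31 ± 0.18 and 0.27 ± 0.38 (adjusted p = 0.157 and 0.693).

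Of the mitosis members, RNA of 9 of 21 rose (42.9%, against 22% of all genes) and of 1 fell (4.76%, against 21.7%). The median log2 fold change was 0.08, with a range from -0.65 to 1.05. In footprints 8 of 21 rose (38.1%, against 8.76%) and 0 fell (against 7.38%), with a median of 0.27. The 9 genes with more RNA were Mki67, Top2a, Cenpe, Cenpf, Bub1, Kif11, Kif20a, Kif23 and Anln, and the 1 with less was Ccnb2. Mki67, which coats mitotic chromosomes and keeps them apart, had 219.8, 226 and 233 CPM of RNA in Msi2 shRNA libraries, against 101, 110.1 and 119 CPM in scrambled libraries. That is a 2.07-fold difference, the largest of the members in RNA, with no overlap (1.05 ± 0.11, adjusted p = 2.97e-06). Its footprints were 168, 185 and 172 CPM in Msi2 shRNA and 85.6, 82.3 and 117 CPM in scrambled libraries (0.92 ± 0.15, adjusted p = 2.52e-05). Top2a, the topoisomerase that untangles sister chromatids, had 313, 280.0 and 321 CPM in Msi2 shRNA and 256, 202 and 221 CPM in scrambled RNA libraries (0.43 ± 0.12, adjusted p = 0.00889), a call that ended without Msi2 shRNA library 3 (adjusted p = 0.0568). Top2a footprints were 417, 349 and 394 CPM in Msi2 shRNA and 355, 280.1 and 289 CPM in scrambled libraries, overlapping by 1 library (adjusted p = 0.0861, and 0.0495 without scrambled library 1).

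At the kinetochore, RNA of Cenpe, Cenpf and Bub1 rose and that of Bub1b was not called. Cenpe, the kinesin that carries chromosomes to the spindle equator, had 118, 118 and 119 CPM of RNA in Msi2 shRNA and 66.4, 50.6 and 76.7 CPM in scrambled libraries (0.88 ± 0.13, adjusted p = 7.02e-05). Its footprints were 142, 166 and 159.6 CPM in Msi2 shRNA and 90.9, 60.1 and 104 CPM in scrambled libraries (0.92 ± 0.17, adjusted p = 0.000130). The scrambled libraries spread more widely than the Msi2 shRNA ones in both assays. Cenpf, a large kinetochore protein of G2 and mitosis, had 121, 124 and 125 CPM of RNA in Msi2 shRNA and 72.7, 66.2 and 92.5 CPM in scrambled libraries (0.68 ± 0.12, adjusted p = 0.000335). Its footprints were 236, 221 and 222 CPM in Msi2 shRNA libraries, against 99.2, 109 and 123 CPM in scrambled libraries (1.06 ± 0.14, adjusted p = 4.56e-07). Bub1, a kinase of the spindle checkpoint, had 140.4, 127 and 128 CPM of RNA in Msi2 shRNA and 74.8, 85.1 and 79.04 CPM in scrambled libraries (0.72 ± 0.11, adjusted p = 6.24e-05). Bub1 footprints, 88.1, 56.2 and 73.7 CPM in Msi2 shRNA and 53.6, 49.04 and 55.02 CPM in scrambled libraries, came closer, Msi2 shRNA library 2 lying just above scrambled library 3 (0.55 ± 0.18, adjusted p = 0.0270). That footprint call ended without Msi2 shRNA library 1 (adjusted p = 0.327) or 3 (0.0876), without scrambled library 1 (0.0750) or 2 (0.102), and under DESeq2 (0.146). Its relative Bub1b (BubR1) was not called, at 0.10 ± 0.10 in RNA and 0.32 ± 0.15 in footprints (adjusted p = 0.464 and 0.163).

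Among spindle and cytokinesis genes, RNA of the motors Kif11, Kif20a and Kif23 and of Anln rose, and that of Prc1 and Tpx2 was not called. Kif23, the motor of the centralspindlin complex at the midzone, had 120.5, 115 and 133 CPM of RNA in Msi2 shRNA and 82.7, 81.7 and 71.7 CPM in scrambled libraries (0.64 ± 0.11, adjusted p = 0.000218). In footprints it had 123, 120.3 and 147 CPM in Msi2 shRNA and 97.5, 81.6 and 95.9 CPM in scrambled libraries (0.52 ± 0.15, adjusted p = 0.0149), a call that ended without Msi2 shRNA library 3 (adjusted p = 0.167) or scrambled library 2 (0.0859) and under DESeq2 (0.0558). Kif20a, a midzone motor needed for cytokinesis, had 212, 193 and 212 CPM of RNA in Msi2 shRNA and 159.8, 151 and 142 CPM in scrambled libraries (0.45 ± 0.11, adjusted p = 0.00354). The groups were apart in footprints as well, at 278, 225 and 274 CPM in Msi2 shRNA and 181, 189.8 and 161 CPM in scrambled libraries (0.55 ± 0.14, adjusted p = 0.00366). Anln (anillin), a scaffold of the contractile ring, had 110.5, 127 and 99.2 CPM of RNA in Msi2 shRNA and 73.2, 65.97 and 88.98 CPM in scrambled libraries (0.56 ± 0.13, adjusted p = 0.00207). Anln footprints were 267, 235 and 244 CPM in Msi2 shRNA and 188, 175 and 157 CPM in scrambled libraries (0.52 ± 0.13, adjusted p = 0.00607, and 0.0663 without Msi2 shRNA library 1). Kif11, the motor that separates spindle poles, rose only slightly, with 52.5, 48.9 and 49.8 CPM of RNA in Msi2 shRNA and 42.2, 37.4 and 42.6 CPM in scrambled libraries (0.31 ± 0.11, adjusted p = 0.0367). Its call ended when any library but scrambled library 3 was left out (adjusted p = 0.0681 to 0.134) and without a filter on low counts (0.0573). Its footprints, 95.2, 58.2 and 94.1 CPM in Msi2 shRNA and 86.1, 67.5 and 53.6 CPM in scrambled libraries, overlapped (adjusted p = 0.338). Prc1, which bundles midzone microtubules and binds the motors of the midzone, was not among them. Its RNA was 77.4, 64.2 and 72.1 CPM in Msi2 shRNA and 95.1, 73.9 and 88.6 CPM in scrambled libraries (-0.27 ± 0.12, adjusted p = 0.0784, and 0.0137 without scrambled library 2), and in footprints it had 129.9, 124 and 126 CPM in Msi2 shRNA and 138, 113 and 116 CPM in scrambled libraries (adjusted p = 0.856). Tpx2, a spindle assembly factor that activates Aurora A, was even between the groups in RNA, with 166, 171 and 171 CPM in Msi2 shRNA and 183, 163 and 144 CPM in scrambled libraries (adjusted p = 0.746). In footprints it had 181, 223 and 199.5 CPM in Msi2 shRNA and 169, 154 and 174 CPM in scrambled libraries (adjusted p = 0.199).

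Of the cyclins and kinases of mitotic entry, Ccnb2 was called in RNA and Cdk1 in footprints. Ccnb2, a B-type cyclin of the kinase that starts mitosis, was the only mitosis member called lower, with 89.9, 84.5 and 87.7 CPM of RNA in Msi2 shRNA and 146, 151 and 115 CPM in scrambled libraries (-0.65 ± 0.12, adjusted p = 0.000341). Its footprints were 93.7, 76.2 and 68.6 CPM in Msi2 shRNA and 125, 112 and 74.8 CPM in scrambled libraries (-0.40 ± 0.17, adjusted p = 0.112). They were called lower without scrambled library 3 (adjusted p = 0.0149) and without the shallowest library of each group (0.0301). Its sister Ccnb1 was level in both assays (0.08 ± 0.10 in RNA and -0.13 ± 0.14 in footprints, adjusted p = 0.558 and 0.561). Cdk1, the kinase itself, was called higher in footprints and not in RNA. Its footprints were 393, 351 and 341 CPM in Msi2 shRNA and 265, 296 and 233 CPM in scrambled libraries (0.44 ± 0.13, adjusted p = 0.0177). Cdk1 RNA was 223, 196 and 241 CPM in Msi2 shRNA and 224, 277 and 185 CPM in scrambled libraries (-0.06 ± 0.14, adjusted p = 0.766). The footprint call ended without Msi2 shRNA library 1 (adjusted p = 0.132) or 3 (0.0558) or scrambled library 1 (0.0685). Ccna2, cyclin A of S and G2, had 117, 92.2 and 103 CPM of RNA in Msi2 shRNA and 129, 126 and 116 CPM in scrambled libraries (-0.25 ± 0.11, adjusted p = 0.0801, and 0.0280 without scrambled library 3). In footprints it had 123, 94.3 and 119 CPM in Msi2 shRNA and 114, 129.6 and 97.3 CPM in scrambled libraries (adjusted p = 0.955). The mitotic kinases Plk1, Aurka and Aurkb had RNA log2 fold changes of -0.13, -0.27 and -0.24 (adjusted p = 0.359, 0.0694 and 0.0982). In footprints these were -0.11, -0.22 and 0.24 (adjusted p = 0.667, 0.398 and 0.332). Aurka was called lower in RNA without scrambled library 2 (adjusted p = 0.0248) or 3 (0.0273), and Aurkb without scrambled library 3 (0.0213). Cdc20, which activates the anaphase-promoting complex, and Birc5 (survivin), a partner of Aurora B, were not called, at 0.07 and -0.09 in RNA (adjusted p = 0.704 and 0.592). They stood at 0.12 and 0.17 in footprints (adjusted p = 0.679 and 0.523).

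**Figure D3:**
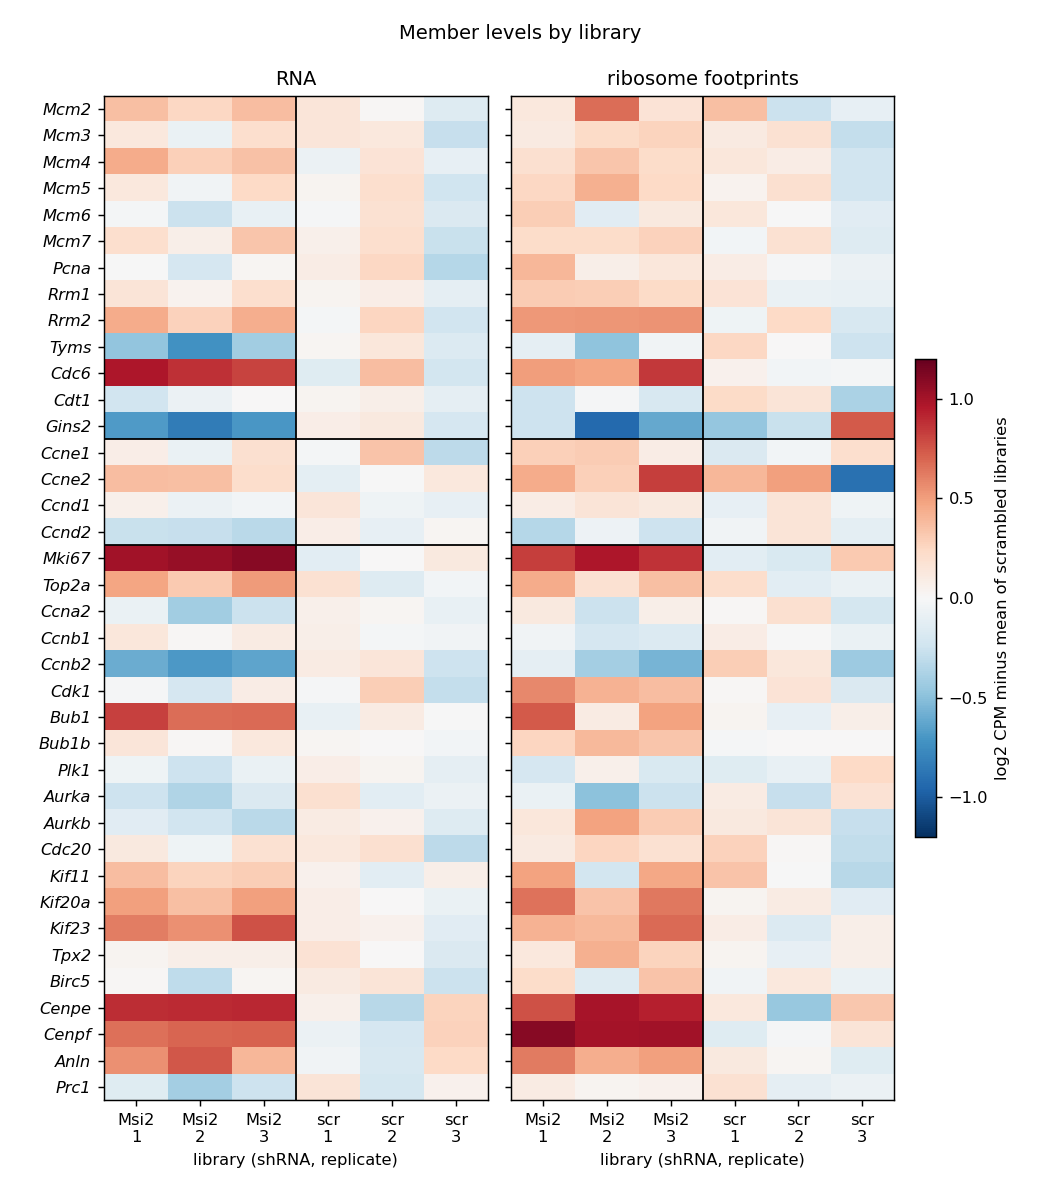
Level of each member in each library, as log2 CPM minus the mean of the 3 scrambled libraries (red higher, blue lower), for RNA (left block) and footprints (right block), with Msi2 shRNA libraries left of scrambled ones and lines between replication, cyclin and mitosis members. Mki67, Cenpe and Cenpf are red in all 3 Msi2 shRNA libraries of both assays, and Ccnb2 and Gins2 are blue in all 3 in RNA.

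Most members called in footprints were also called in RNA, as were most of all genes called in footprints. Over all genes, 786 were called higher in footprints and 594 higher in both assays, and 662 lower in footprints and 548 lower in both. The groups did not overlap for 14 members higher and 5 lower in RNA (26.8% and 26.2% of all genes) and for 16 higher and 0 lower in footprints (15.9% and 15.4%, 31.4% in all, against 52.9% in RNA). Both assays called 9 members higher, namely Rrm2, Cdc6, Mki67, Bub1, Kif20a, Kif23, Cenpe, Cenpf and Anln, and 0 lower. For comparison, 6.66% of the 8918 genes tested in both were called higher in both and 6.14% lower in both. Mcm2, Mcm4, Top2a and Kif11 were called higher in RNA alone, and Tyms, Gins2, Ccnd2 and Ccnb2 lower in RNA alone. A call in 1 assay is not a difference between assays. Across the 38 members the log2 fold changes of the assays had a Pearson r of 0.89 and a Spearman rho of 0.88, and 30 members had the same sign in both. This is a correlation across genes that share libraries within each assay, and the same correlation over all genes was not computed. Translational efficiency, the change of footprints beyond that of RNA in a single model of the 12 libraries, was called for 0 members by edgeR and by DESeq2. Of 10821 genes, edgeR called 0.203%, 0.129% higher and 0.0739% lower, and DESeq2 called 0.915%. Unadjusted p was under 0.05 for 3 of 38 members, a smaller share than the 12% of all genes: Cdk1 (0.52 ± 0.20, adjusted p = 0.277), Aurkb (0.49 ± 0.19, adjusted p = 0.296) and Cenpf (0.40 ± 0.19, adjusted p = 0.390).

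Set against each other, replication and mitosis members had close medians and lay further apart in their means. The median RNA log2 fold change was 0.10 for replication and 0.08 for mitosis members, and in footprints 0.22 and 0.27. The replication median minus the mitosis median was thus 0.02 in RNA, and the same difference of means was -0.13; in footprints the 2 differences were -0.06 and -0.15. Mean levels were then compared library by library. Replication members lay at 0.11, -0.03 and 0.14 log2 CPM relative to the scrambled mean in Msi2 shRNA RNA libraries and at 0.03, 0.17 and -0.20 in scrambled ones, which overlapped. Mitosis members lay at 0.24, 0.13 and 0.22 in Msi2 shRNA and 0.06, -0.01 and -0.05 in scrambled RNA libraries, which did not. In footprints neither group overlapped. Replication members lay at 0.18, 0.13 and 0.17 in Msi2 shRNA and 0.08, 0.03 and -0.11 in scrambled libraries. Mitosis members lay at 0.35, 0.23 and 0.32 in Msi2 shRNA and 0.08, -0.03 and -0.04 in scrambled libraries. Replication minus mitosis within a library was -0.13, -0.16 and -0.09 in Msi2 shRNA RNA libraries and -0.03, 0.18 and -0.15 in scrambled ones, overlapping. The same difference was -0.17, -0.10 and -0.15 in Msi2 shRNA footprint libraries and 0.00, 0.06 and -0.07 in scrambled ones. In footprints the gap between the groups of genes was thus below that of every scrambled library in all 3 Msi2 shRNA libraries. No p was computed, because the members were chosen with results of these data known.

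Mitosis members called higher had a longer median genomic span than those not called, a difference that was not tested, and the RNA change rose with span over all genes of these libraries. Over 11079 genes with a RefSeq span, the median RNA log2 fold change was -0.18, -0.05, 0.04 and 0.22 in 4 bins of equal size from the shortest genes (up to 10.2 kb) to the longest (above 53.03 kb). The Spearman correlation was 0.24 across all genes and 0.35 across the 38 members. Mitosis members called higher had a median span of 31.7 kb (8.65 to 60.98 kb), the 1 called lower 13.9 kb, and those not called 10.5 kb (4.44 to 47.4 kb). For replication members the median was 14.4 kb for the 4 called higher, 21.5 kb for the 2 called lower (7.81 and 35.1 kb) and 17.3 kb for those not called. With each library's trend with span removed, 13 members were called higher and 4 lower in RNA, and 10 higher and 0 lower in footprints. Among them 5 replication and 8 mitosis members were higher in RNA. Mcm7 was gained (0.31, adjusted p = 0.0346) and Kif11 lost (0.20, adjusted p = 0.137). The RNA median was then 0.11 for replication and 0.18 for mitosis members. Replication minus mitosis median went from 0.02 to -0.07 in RNA and from -0.06 to -0.02 in footprints.

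**Figure D4:**
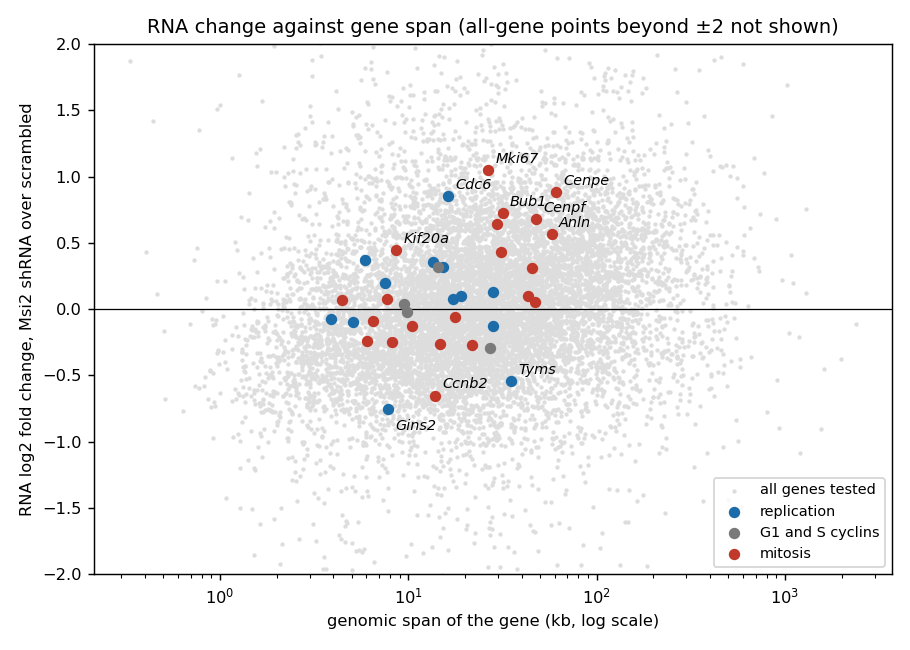
RNA log2 fold change, Msi2 shRNA over scrambled (vertical axis), against the genomic span of the gene in kb (horizontal, log scale), for replication members (blue), G1 and S cyclins (dark grey), mitosis members (red) and all genes tested (light grey, points beyond 2 or -2 not drawn). Cenpe, Cenpf, Anln and Bub1 lie to the upper right, and Gins2, Ccnb2 and Tyms lie lowest of the members.

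Other genes of DNA replication were called at shares near those of all genes in RNA. Of 56 such genes, 13 rose and 10 fell in RNA (23.2% and 17.9%, against 22% and 21.7% of all genes), and 5 of 55 rose and 1 fell in footprints (9.09% and 1.82%, against 8.76% and 7.38%). Wdhd1, a replisome adaptor (1.37 ± 0.14, adjusted p = 2.20e-06), Pole, the leading-strand polymerase (0.87 ± 0.11, adjusted p = 1.75e-05), and Orc1 of the origin recognition complex (0.91 ± 0.14, adjusted p = 7.74e-05) had the smallest p among those that rose. Rfc4 of the clamp loader (-0.73 ± 0.11, adjusted p = 0.000101), the GINS subunit Gins4 (-0.70 ± 0.11, adjusted p = 0.000144) and Rnaseh2a (-0.64 ± 0.13, adjusted p = 0.000752) fell. Gins4 had 50.9, 45.98 and 49.1 CPM in Msi2 shRNA and 84.5, 81.3 and 70.3 CPM in scrambled RNA libraries, and its footprints fell too (-0.65 ± 0.18, adjusted p = 0.00884). The member Gins2, another GINS subunit, also had less RNA, and its footprints were not called. Gins1 and Gins3, on the same list as Gins4, are not given here. In footprints Wdhd1 (0.88 ± 0.25, adjusted p = 0.0103), Uhrf1 (0.60 ± 0.17, adjusted p = 0.0113) and Chtf18 (0.70 ± 0.22, adjusted p = 0.0216) rose.

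Of 77 further mitosis genes tested, 29 rose in RNA (37.7%, against 22% of all genes) and 10 fell (12.99%, against 21.7%). In footprints the shares lay nearer those of all genes, with 9 higher (11.7%, against 8.76%) and 4 lower (5.19%, against 7.38%). Troap (1.10 ± 0.13, adjusted p = 9.22e-06), the transcription factor Foxm1 (0.94 ± 0.12, adjusted p = 2.62e-05) and separase, Espl1 (0.86 ± 0.12, adjusted p = 3.23e-05), had the smallest p among those that rose in RNA. Cenpk (-0.80 ± 0.14, adjusted p = 0.000304), Mad1l1 (-0.64 ± 0.12, adjusted p = 0.000405) and Nusap1 (-0.77 ± 0.15, adjusted p = 0.000524) had it among those that fell. Foxm1 had 197, 203 and 203 CPM of RNA in Msi2 shRNA and 98.02, 91.9 and 126 CPM in scrambled libraries. Its footprints were 66.97, 68.2 and 69.6 CPM in Msi2 shRNA and 49.6, 72.2 and 66.3 CPM in scrambled libraries, which overlapped (adjusted p = 0.696). Footprints of Espl1 (0.93 ± 0.17, adjusted p = 0.000119), Spag5 (0.81 ± 0.16, adjusted p = 0.000323) and Casc5 (0.87 ± 0.21, adjusted p = 0.00270) rose. Those of Cdc25b (-0.65 ± 0.17, adjusted p = 0.00514), Nusap1 (-0.92 ± 0.24, adjusted p = 0.00691) and Ndc80 (-0.77 ± 0.26, adjusted p = 0.0370) fell.

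A further list of 36 genes held CDKs, CDK inhibitors, E2F and Rb genes, with others such as Myc, Skp2, Fzr1, Ccng1 and Ccnt1. Of the 36, 12 rose and 4 fell in RNA (33.3% and 11.1%, against 22% and 21.7% of all genes). In footprints 2 of 32 rose and 1 fell (6.25% and 3.12%, below the 8.76% and 7.38% of all genes). Cdkn2a, which encodes the INK4A and ARF inhibitors of the cycle, fell to 12.4, 11.2 and 11.2 CPM of RNA in Msi2 shRNA libraries, against 41.5, 36.7 and 30.9 CPM in scrambled libraries (-1.66 ± 0.14, adjusted p = 4.01e-07). Its footprints were 19.6, 30.1 and 20.5 CPM in Msi2 shRNA and 50.1, 54.7 and 46.6 CPM in scrambled libraries (-1.24 ± 0.22, adjusted p = 7.24e-05). E2f1, a driver of S-phase genes, had 58.2, 63.4 and 65.3 CPM of RNA in Msi2 shRNA and 22.9, 36.3 and 26.8 CPM in scrambled libraries (1.12 ± 0.15, adjusted p = 2.44e-05). It had footprints of 10.6, 10.03 and 22.5 CPM in Msi2 shRNA and 5.27, 8.73 and 8.46 CPM in scrambled libraries (adjusted p = 0.0804). Ccng1, a p53 target, rose in RNA (0.99 ± 0.12, adjusted p = 7.48e-06) and footprints (0.85 ± 0.16, adjusted p = 0.000190). E2f8 rose in RNA (0.62 ± 0.11, adjusted p = 0.000244), and the phosphatase Cdc25a in footprints (0.83 ± 0.21, adjusted p = 0.00545). Ccnh (-0.60 ± 0.12, adjusted p = 0.000890) and the remaining D cyclin, Ccnd3 (-0.34 ± 0.11, adjusted p = 0.0180), fell in RNA.

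Msi2 peaks fell in the 3' UTRs of 11 of the 38 members (28.9%), 33 peaks in all, where 10.3% of the genes tested in RNA and 12.6% of those tested in footprints had one. At higher RNA levels the shares were larger: of the 35 members with an average of at least 5 log2 CPM 11 had a peak, against 17% of the 4813 genes at that level. The peak list gives, per region, a height over the 5 CLIP libraries, which is the authors' own, and reads per library. Heights started at 10 and the list held 1954 to 26026 reads per library. The D cyclins held 21 of the 33 peaks. Ccnd1 had 11 (chr7:144929929-144932468, minus strand, mm10), with heights of 12 to 48 and 1, 67, 121, 92 and 77 reads in libraries 1 to 5, the first being the shallow library with undiluted RNase. Ccnd2 had 10 (chr6:127125539-127130359, minus strand), with heights of 11 to 81 and 7, 42, 66, 88 and 98 reads. By number of peaks Ccnd1 ranked 15 and Ccnd2 ranked 20 among the 1199 genes with a peak. A read that reaches into neighbouring peaks can be counted in each. The highest peak of Ccnd2 (chr6:127128365-127128817) had a height of 81 and reads in 5 of 5 libraries, and the highest of Ccnd1 (chr7:144931839-144932024) a height of 48 and reads in 4 of 5.

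**Figure D5:**
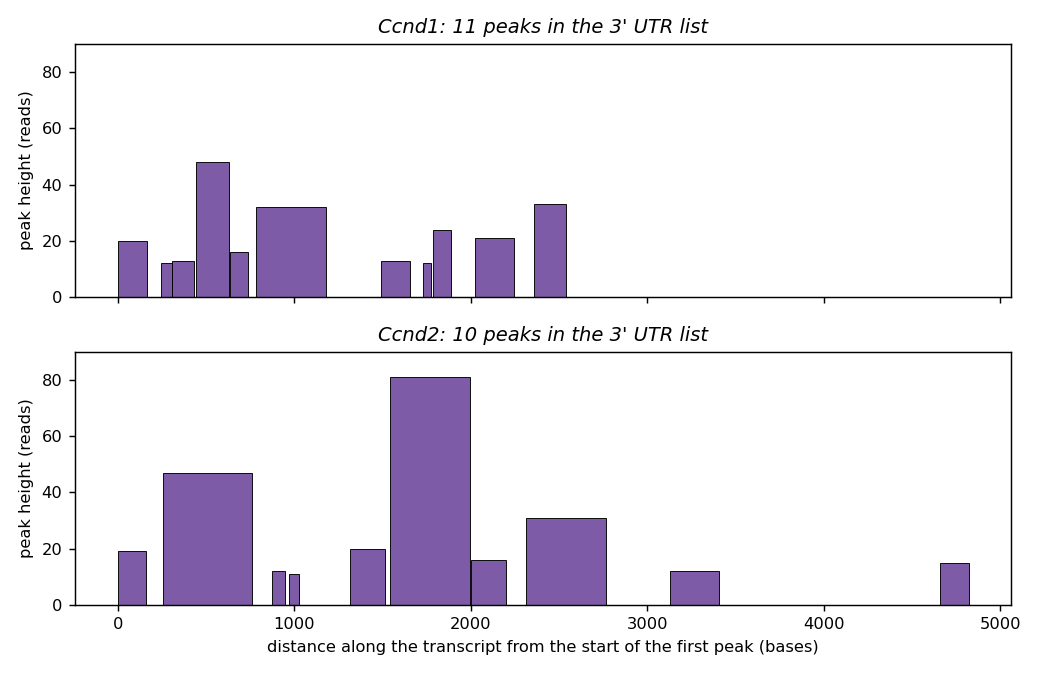
Msi2 CLIP peaks in the 3' UTRs of Ccnd1 (top, 11 peaks) and Ccnd2 (bottom, 10 peaks); bar width is the extent of a peak along the transcript in bases, counted from the start of the first peak, and bar height is the peak height in reads over the 5 libraries. The highest bars reach 48 for Ccnd1 and 81 for Ccnd2, and the peaks cover 1760 of 2540 bases of the window in Ccnd1 and 2536 of 4821 in Ccnd2.

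The other 9 members had 1 or 2 peaks each, with heights of 10 to 49, where the median over the list was 16. Cenpf had 2 (heights 14 and 49; 0, 2, 14, 36 and 11 reads in libraries 1 to 5), the higher at chr1:189642079-189642306, while Mcm4 had 2 (15 and 16; 31 reads) and Top2a 2 (10 and 20; 30 reads). Single peaks were found in Tpx2 (height 40; 40 reads), Mcm3 (39; 39 reads), Anln (25; 25 reads), Mcm2 (19; 19 reads), Ccna2 (13; 13 reads) and Prc1 (10; 10 reads). At a height of at least 20, peaks remained in 7 members. By group, 3 of 13 replication members, 2 of 4 G1 and S cyclins and 6 of 21 mitosis members had a peak. Of the 11 members with a peak, RNA of 5 rose (Mcm2, Mcm4, Top2a, Cenpf and Anln) and of 1 fell (Ccnd2), and of the 27 without one, 8 rose and 3 fell. In footprints 2 of 11 with a peak rose (Cenpf and Anln) and 8 of 27 without one, and 0 fell in either. Over all genes tested in RNA, 30.1% of those with a peak were called higher and 18.2% lower, against 21.1% and 22.1% of those without. In footprints the shares were 16.6% and 8.59% with a peak, against 7.64% and 7.21% without. These shares were not tested against each other or compared at equal abundance. The median RNA log2 fold change was 0.07 with a peak and 0.08 without, and that of footprints 0.21 and 0.27. Of the 7 members with the largest RNA changes in either direction, Cenpf had 3' UTR peaks, and Mki67, Cenpe, Cdc6, Gins2, Bub1 and Ccnb2 had none in the list.

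Mcm7 had no 3' UTR peak but carried 4 CLIP regions elsewhere in the gene, all over the microRNA cluster in 1 of its introns. The Mcm7 gene (chr5:138164583-138172111, minus strand) hosts Mir25, Mir93 and Mir106b, and regions in the list of all CLIP regions covered 1 arm of Mir25, 1 arm of Mir93 and both arms of Mir106b. Mature sequences from RefSeq (GRCm38.p6) are given with the seed, bases 2 to 8, in capitals, because the region bounds fell within a few bases of these arms.
miR-25-3p (chr5:138165332-138165353): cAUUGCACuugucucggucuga
miR-93-5p (chr5:138165574-138165596): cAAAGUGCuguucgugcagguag
miR-106b-5p (chr5:138165787-138165807): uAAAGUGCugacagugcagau
miR-106b-3p (chr5:138165746-138165767): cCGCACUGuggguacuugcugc

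The seed AAAGUGC is shared by miR-93-5p and miR-106b-5p, and miR-25-3p has another. The region over miR-25-3p (chr5:138165329-138165353) had a height of 18, that over miR-93-5p (chr5:138165568-138165597) 30, and those over miR-106b-5p (chr5:138165785-138165807) and miR-106b-3p (chr5:138165744-138165769) 21 and 16. All 4 had reads in 5 of 5 libraries, and 23 to 30 bases is far shorter than the median of 138 bases over all regions. The miR-93-5p region had 10, 9, 3, 4 and 4 reads in libraries 1 to 5, although library 1 was the shallowest over the whole list (6608 reads, against 44753 to 61629 in the others). Regions over an annotated hairpin numbered 111 of 4051 (2.74%), so those in Mcm7 belong to a class seen across the list. No control library for CLIP was analysed here, so reads of abundant small RNAs and reads bound by Msi2 cannot be told apart here. Outside the 3' UTR list, Top2a (height 24) and Ccna2 (height 10) had 1 further region each.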

How the data were processed

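The deposited RNA and footprint tables hold raw counts of reads over coding sequences, made by the authors. Per the submitters' processing notes, the tools were TopHat, HTSeq and DESeq, without versions, and the build was mm10. The deposited CLIP lists give the authors' signal per region (peak height over the 5 libraries) and counts of overlapping reads per library; cutadapt and Novoalign are named for these, and the peak caller is not given in the sources used here. The RNA table's lines for reads in no gene (32.3 to 35.2% of a library) or not uniquely aligned (13.4 to 24.5%) stayed out of library sizes; a gene with a near-identical copy may lose reads among the latter. The footprint table has no such lines, and its control columns, headed wild type, are the scrambled libraries per the deposited description.

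Tests used edgeR 4.0.16 in R 4.3.3: edgeR's low-count filter was set to 10 counts (15 over all libraries), TMM factors scaled the libraries, and genes were given a quasi-likelihood F test with robust dispersion. P-values were adjusted over all genes tested (Benjamini-Hochberg) and called under 0.05, with RNA and footprints fitted apart and translational efficiency as the interaction of assay and knockdown over 12 libraries. Differences are log2 fold changes, Msi2 shRNA over scrambled, with the standard error of the fit; CPM are TMM-scaled. The tests were also run on counts simulated with edgeR's own fitted dispersions, which cannot show how well that model describes these libraries. No 2 libraries agreed within sampling noise. Alternatives were DESeq2 1.42.0, upper-quartile factors, no filter, 10 CPM in 3 libraries, a replicate block, removal of the trend with span (loess, span 0.5), and each library left out in turn. The members, the lists of other genes and the rule for named genes (all members once, library values for called members and those with a peak, and the 3 smallest p per list and direction) were chosen with earlier results of these data known, so no test was made over a list. Gene spans, promoters and microRNAs came from RefSeq tables of GRCm38.p6. Peak sequences are not printed, since no genome was used here.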

Additional observations from a re-analysis of the deposited data

Results flagged for a closer look

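Of the members with CLIP peaks, 4 had 1 library far from the other 4 in the share of its 3' UTR list reads that fell in the gene. In all, 11 genes were looked at. The rule flags about 1 in 20 groups by chance where the 5 values are equally precise. These shares come from libraries of 1954 to 26026 reads and are not equally precise, so that rate does not hold here. For Anln the highest share was 0.205% and the next 0.0285%, the lowest 0.0169%, a gap of 0.938 of the whole range. For Ccna2 the highest was 0.0512% and the lowest 0.00816%, with a gap of 0.797. Both high values came from library 1, with undiluted RNase and 1954 reads in the list, where Anln had 4 reads and Ccna2 1. For Mcm3 the lowest share, 0.00563%, came from library 2 (Low MW), with 1 read. It lay apart from the others (0.0408% and up), a gap of 0.730 of the range. For Top2a the lowest was 0% in library 1, which had no read, and the highest 0.0367%, with a gap of 0.776; a count of 0 allows up to 3 reads. No cause was tested.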

How the results depend on the processing

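Of 17 members called in RNA, 11 kept their call under every alternative (Tyms, Cdc6, Gins2, Mki67, Ccnb2, Bub1, Kif20a, Kif23, Cenpe, Cenpf and Anln), and of 10 called in footprints 5 did (Rrm2, Mki67, Kif20a, Cenpe and Cenpf); no member changed direction past the threshold. With 1 library left out, RNA called 8 (without Msi2 shRNA library 3) to 12 members higher and 3 to 7 lower (7 without scrambled library 3), and 3548 to 5486 genes in all; footprints called 6 (without Msi2 shRNA library 3) to 10 members higher and 0 to 1 lower (1 without scrambled library 3), and 842 to 1634 of all genes, and DESeq2 called 854. Without the shallowest footprint library of each group, 2 members were called lower in footprints, the replication minus mitosis median was -0.17 in footprints and -0.10 in translational efficiency, and 13 genes were called for translational efficiency. That difference with means in place of medians was -0.13 in RNA and -0.15 in footprints, and with 1 library left out it ran from -0.07 to 0.07 in RNA, -0.139 to -0.0452 in footprints and -0.10 to 0.15 in translational efficiency, where it was 0.08 in the full data. Genes called for translational efficiency numbered 22, and 99 with DESeq2, 124 without a filter, 14 at 10 CPM, 34 without the span trend, and 0 to 243 with 1 library left out (243 without scrambled RNA library 3). The cause of these shifts was not tested.

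Same-numbered libraries did not deviate together (r = 0.06, -0.28 and -0.23 in RNA; 0.05, 0.03 and -0.00 in footprints). Pairing by number was thus not seen, which does not exclude it. Differently numbered RNA libraries reached r = 0.31 (Msi2 shRNA 2 with scrambled 3) and 0.24 (Msi2 shRNA 3 with scrambled 2). The other such RNA pairs lay at -0.11 to 0.06, and the reason was not tested. With the replicate number as a block, 10 members were higher and 3 lower in RNA, 9 higher and 0 lower in footprints, and 3 genes were called for translational efficiency. Restricting to a height of at least 20 left 7 members with a peak. Footprint depth, down to 512256 counts, limits what can be said of translational efficiency.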
